A study of Arabidopsis thaliana with 4 samples.

Results

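The chloroplast of Arabidopsis thaliana keeps its own small genome, and this account concerns the 33 photosynthesis genes that it encodes outside the NDH complex. They comprise 5 photosystem I genes (psa), 15 photosystem II genes (psb), 6 genes of the cytochrome b6f complex (pet), 6 genes of the ATP synthase (atp) and rbcL, which encodes the large subunit of Rubisco. The genes were chosen by an annotation rule, as probe sets with a single plastid locus tag and a symbol of one of these kinds. The rule was set with earlier results of these data known. Each gene had 1 probe set, so the 33 genes correspond to 33 of 22746 non-control probe sets, and to 33 of the 69 probe sets assigned to a single plastid gene. All 33 such genes in the RefSeq gene table were represented.

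Photosystem II splits water and passes electrons through the cytochrome b6f complex to photosystem I, which reduces ferredoxin. The proton gradient built on the way drives the ATP synthase, and the resulting ATP and NADPH power the cycle that Rubisco enters by fixing carbon dioxide. FNR1, encoded in the nucleus, is a leaf ferredoxin-NADP+ oxidoreductase, the enzyme that hands the electrons from ferredoxin to NADP+. Each of these complexes combines subunits from the plastid and the nuclear genome. Plastid genes are mostly transcribed together in groups, and the long transcripts are then cut into shorter ones, so that a probe set reads precursors and mature mRNA alike.

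The series set the effect of an FNR1 mutation against natural variation. There were 4 arrays, 1 each for fnr1 in the ecotype Wassilewskija (Ws), wild type Ws, fnr1 in the ecotype Columbia and wild type Columbia. All RNA came from above-ground tissue of 31-day-old plants, taken 4 h into an 8 h light period that alternated with 16 h of dark, at 21 °C and about 100 µmol quanta per square metre per second. The labels give neither the allele of fnr1, nor how the mutation came to be in each ecotype, nor the number of plants behind an array. FNR1 had no listed probe set, and the genotype of the fnr1 arrays rests on their labels. Labelling began from an oligo(dT) primer, whereas plastid mRNAs carry no stable poly(A) tail, and the share of each plastid transcript that was captured is not known.

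The deposited median signal was 27.5 in fnr1 Ws, 28.9 in wild type Ws, 27.7 in fnr1 Columbia and 22.1 in wild type Columbia. Every array was therefore scaled to the same median, and all signals below are on that scale. There was 1 array per combination, so the genotype effect was averaged over Ws and Columbia, the ecotype effect over fnr1 and wild type, and the residual spread came from the mismatch between the pairs. A probe set was called where its adjusted p from limma, over 13648 tested probe sets, was under 0.05. In this bulk tissue, fewer cells of a type, fewer plastid genomes per cell and less RNA per plastid cannot be told apart. Of the green leaf markers, 5 of 13 had a listed probe set, and their summed signal was 20778 in fnr1 Ws, 20699 in wild type Ws, 24258 in fnr1 Columbia and 25959 in wild type Columbia. The 5 markers did not move alike between ecotypes. Their fitted log2 differences of Ws minus Columbia were -1.10 for LHCB4.2, -1.04 for LHCB4.3, -0.12 for PRK, -0.08 for LHCB4.1 and 0.0002 for RCA. Root markers were represented by 1 of 8 (BGLU23, at 70.8 to 132), and flower and seed markers by none.

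The median signal of the 33 plastid photosynthesis genes was 1474 in fnr1 Ws, 1565 in wild type Ws, 1473 in fnr1 Columbia and 1335 in wild type Columbia. Single signals lay between 22.9 and 8321, below the highest signal on any array, 11351, and all 33 genes passed the filter on low signals. The wild type Columbia array had the lowest median, and it was also the array with the largest scale factor (1.19, against 0.912 to 0.961 on the others).

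**Figure D1:**
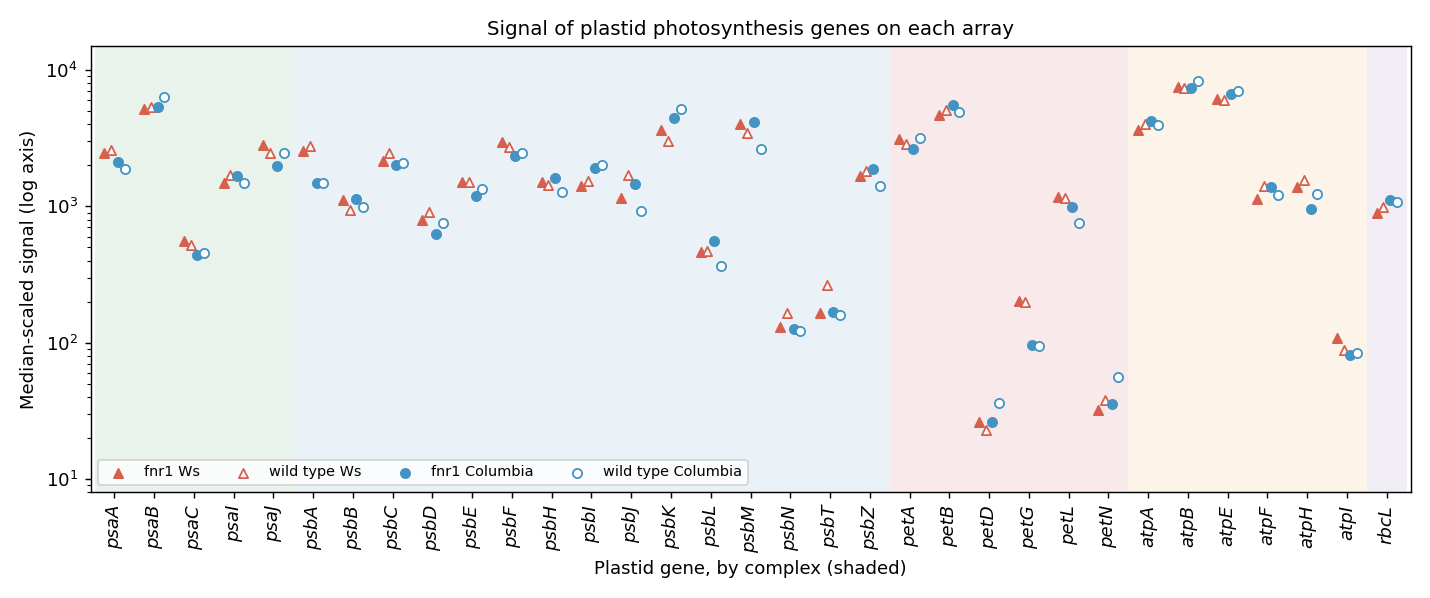
Median-scaled signal of each of the 33 plastid genes (vertical log axis, arbitrary units) on the 4 arrays, with genes along the horizontal axis by complex (shaded) and 1 point per array, triangles for Ws, circles for Columbia, filled for fnr1 and open for wild type. The points of most genes lie close together, while those of psbA and petG fall into a Ws pair at higher signal and a Columbia pair at lower signal.

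None of the 33 genes passed the test between fnr1 and wild type. With limma, 0 of 33 were called, the lowest adjusted p was 0.527, and 1 gene (psbM) had an unadjusted p under 0.05. Of all tested probe sets, 0.183% were called in this comparison (0.161% higher and 0.022% lower in fnr1) and 6.67% had an unadjusted p under 0.05. The median fitted log2 difference of the 33 genes was -0.03, the same as that of all tested probe sets (-0.03), with 14 genes above 0 and 19 below. Their differences ranged from -0.38 (petN) to 0.43 (psbM) with an SD of 0.17, against 0.25 over all tested probe sets. These SDs were not matched for signal. Most of the 33 genes were far brighter than the median probe set, and standard errors were smaller for bright genes (0.13 for atpE, 0.24 for petD).

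The standard errors of the differences averaged over Ws and Columbia were 0.13 to 0.24 on the log2 scale. The 95% intervals of 28 of the 33 genes lay inside 1.5-fold in either direction. The 5 whose intervals reached beyond it were petD, petN, psbL, psbM and psbT. Over the 33 genes together, the intervals ran from 1.79-fold lower to 1.66-fold higher in fnr1.

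**Figure D2:**
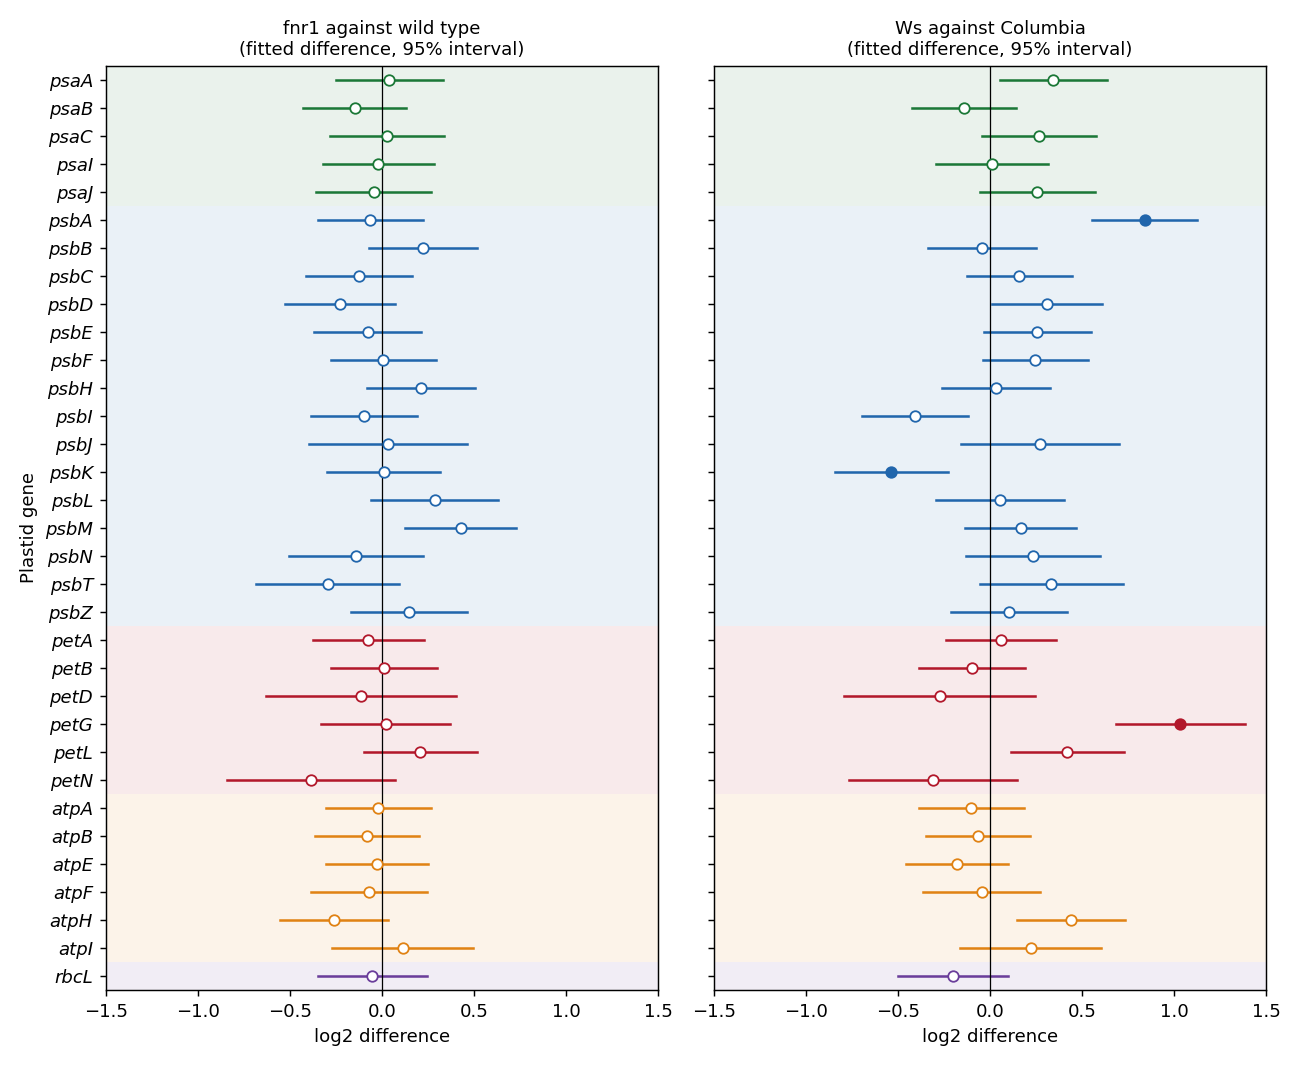
Fitted log2 difference (point) and its 95% interval (line) for each of the 33 genes, fnr1 minus wild type on the left and Ws minus Columbia on the right, with shading by complex and filled points for genes called at an adjusted p under 0.05. No point is filled on the left, and 3 are filled on the right: psbA (0.84), petG (1.03) and psbK (-0.53).

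By complex, the median log2 difference of fnr1 minus wild type was -0.02 for psa, 0.01 for psb, -0.03 for pet and -0.05 for atp, and rbcL stood at -0.05. Both fnr1 arrays lay on one side of both wild type arrays for 5 of 33 genes (15.2%), compared with 27.1% of all tested probe sets. Those were psbM, psbB and psbH, higher in fnr1, and petN and psaB, lower in fnr1.

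Among the photosystem I genes, psaA and psaB encode the reaction centre proteins that carry most of the chlorophyll. The psaA signal was 2461 in fnr1 Ws, 2595 in wild type Ws, 2104 in fnr1 Columbia and 1883 in wild type Columbia, with the genotypes overlapping (fitted log2 difference 0.04 ± 0.14 SE, limma adjusted p = 0.982). The psaB signal was 5184 in fnr1 Ws, 5363 in wild type Ws, 5342 in fnr1 Columbia and 6340 in wild type Columbia. It was lowest in the fnr1 arrays, at a fitted difference of -0.15 ± 0.13 (limma adjusted p = 0.889). The remaining psa genes, psaC for the protein that holds the terminal iron-sulfur clusters and psaI and psaJ for small subunits, had fitted differences from -0.04 to 0.03.

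In photosystem II the largest and the smallest fitted differences belonged to genes of small subunits. The psbM signal, for a subunit at the dimer interface, was 3992 in fnr1 Ws, 3458 in wild type Ws, 4146 in fnr1 Columbia and 2640 in wild type Columbia. Both fnr1 arrays were higher than both wild type arrays, with a log2 difference of 0.21 in Ws and 0.65 in Columbia, and the fitted difference of 0.43 ± 0.14 was not called by limma (adjusted p = 0.527). The psbT signal was 164 in fnr1 Ws, 264 in wild type Ws, 169 in fnr1 Columbia and 160 in wild type Columbia. Here the wild type Ws array stood alone above the other 3, and the fitted difference of -0.29 ± 0.18 was not called (limma adjusted p = 0.823). For psbA, the gene of the D1 reaction centre protein, and psbK, another small subunit, the fitted differences were -0.06 ± 0.14 and 0.01 ± 0.14.

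None of the genes for the larger photosystem II proteins was called between genotypes. The psbB gene (CP47) had 1116 in fnr1 Ws, 936 in wild type Ws, 1128 in fnr1 Columbia and 983 in wild type Columbia, higher in both fnr1 arrays, with a fitted log2 difference of 0.23 ± 0.14 that limma did not call (adjusted p = 0.823). The fitted differences were -0.12 for psbC (CP43, with CP47 the core antenna) and -0.23 for psbD (D2, the partner of D1), and -0.08 and 0.01 for psbE and psbF, the cytochrome b559 genes. The values for psbB were chosen after they had been seen.

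The cytochrome b6f genes divide into those for large subunits (petA for cytochrome f, petB for cytochrome b6, petD for subunit IV) and those for small ones (petG, petL, petN). The petL signal was 1169 in fnr1 Ws, 1144 in wild type Ws, 987 in fnr1 Columbia and 754 in wild type Columbia, with the genotypes overlapping (fitted log2 difference 0.21 ± 0.15, limma adjusted p = 0.845). The petN signal was low on every array, at 32.3 in fnr1 Ws, 38.0 in wild type Ws, 35.8 in fnr1 Columbia and 55.9 in wild type Columbia. Both fnr1 arrays were below both wild type arrays, and the fitted difference of -0.38 ± 0.21 had a limma adjusted p of 0.815. The petB signal was 4642 in fnr1 Ws, 5119 in wild type Ws, 5531 in fnr1 Columbia and 4927 in wild type Columbia. It overlapped between genotypes, with a fitted difference of 0.01, and petG, petA and petD had 0.02, -0.07 and -0.11. The petD and petN signals, at 22.9 to 55.9, were close to the median of all probe sets (26.4), and without detection calls their distance from background is not known.

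For the ATP synthase, the fitted differences ran from -0.26 for atpH, the gene of the membrane ring subunit, to 0.11 for atpI, the gene of a stator subunit in the membrane. The atpH signal was 1396 in fnr1 Ws, 1565 in wild type Ws, 959 in fnr1 Columbia and 1232 in wild type Columbia. Within each ecotype fnr1 was the lower array (log2 difference -0.16 in Ws and -0.36 in Columbia), but the genotypes overlapped over all 4 arrays, and limma did not call the gene (adjusted p = 0.800). The atpI signal was 108 in fnr1 Ws, 88.4 in wild type Ws, 81.6 in fnr1 Columbia and 84.5 in wild type Columbia. Its genotypes overlapped, with a limma adjusted p of 0.960. The genes of the catalytic head and its stalk, atpA, atpB and atpE, had fitted differences of -0.02, -0.08 and -0.03, and atpF, for another stator subunit, had -0.07.

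The rbcL signal was 896 in fnr1 Ws, 997 in wild type Ws, 1106 in fnr1 Columbia and 1068 in wild type Columbia. It was lower in fnr1 within Ws (-0.15) and higher in fnr1 within Columbia (0.05), with a fitted log2 difference of -0.05 ± 0.14 (limma adjusted p = 0.975).

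Within a single ecotype there was 1 array per genotype and no test. In Ws, 0 of the 33 genes were at least 1.5-fold higher in fnr1 and psbT was that much lower, while 2.48% of all tested probe sets were that much higher and 3.22% that much lower. In Columbia, psbJ, psbL and psbM were at least 1.5-fold higher in fnr1 and 0 genes were as much lower, beside 4.25% and 3.99% of all tested probe sets. None of the 4 genes passed this fold in both ecotypes. The psbJ gene, for another small photosystem II subunit, had 1143 in fnr1 Ws, 1710 in wild type Ws, 1452 in fnr1 Columbia and 924 in wild type Columbia, so that fnr1 was lower than wild type in Ws and higher in Columbia. Its neighbour psbL had 466 in fnr1 Ws, 473 in wild type Ws, 556 in fnr1 Columbia and 366 in wild type Columbia, with wild type Columbia the lowest and the other 3 arrays closer together. These values of psbJ and psbL were also chosen after they had been seen.

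**Figure D3:**
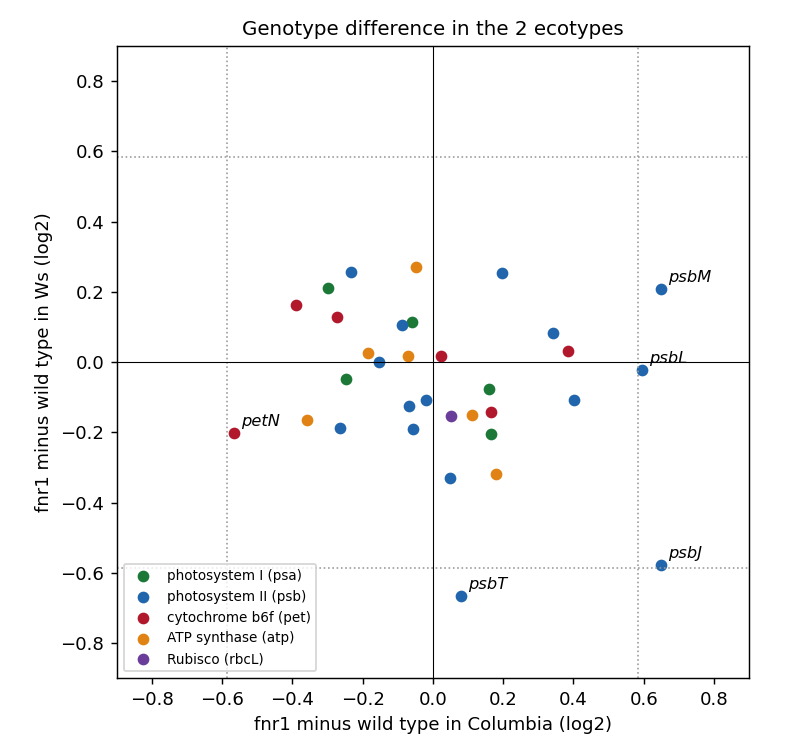
Log2 difference of fnr1 minus wild type in Columbia (horizontal axis) and in Ws (vertical axis) for the 33 genes, 1 point per gene, coloured by complex, with dotted lines at 1.5-fold. Only psbM, psbL, psbJ and psbT lie beyond a dotted line, and psbJ has opposite signs on the 2 axes (-0.58 in Ws and 0.65 in Columbia).

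Between the ecotypes, 3 of the 33 genes were called. psbA and petG were higher in Ws and psbK was lower in Ws. The 3 calls by limma amount to 9.09% of the 33 genes, beside 8.32% of all tested probe sets (3.07% higher and 5.25% lower in Ws), so the share of called genes was close to the background. Without adjustment, 8 of 33 genes had an unadjusted p under 0.05, beside 20.2% of all tested probe sets.

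The psbA signal was 2561 in fnr1 Ws, 2763 in wild type Ws, 1473 in fnr1 Columbia and 1492 in wild type Columbia. Both Ws arrays were well above both Columbia arrays, and the genotypes of an ecotype were close. The fitted log2 difference of Ws minus Columbia was 0.84 ± 0.14 SE, or 1.79-fold (limma adjusted p = 0.000486). D1, its product, is the photosystem II protein that light damages fastest and that is replaced most often.

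The petG signal was 202 in fnr1 Ws, 199 in wild type Ws, 95.8 in fnr1 Columbia and 94.2 in wild type Columbia. The Ws pair and the Columbia pair were each nearly equal and far apart, at a fitted log2 difference of 1.03 ± 0.17, or 2.05-fold (limma adjusted p = 0.000472). It was the largest ecotype difference of the 33 genes. The PetG protein is a small subunit at the edge of the cytochrome b6f complex.

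The psbK signal was 3623 in fnr1 Ws, 3033 in wild type Ws, 4430 in fnr1 Columbia and 5213 in wild type Columbia. Both Ws arrays were below both Columbia arrays, by a log2 difference of -0.29 between the fnr1 arrays and -0.78 between the wild type arrays. The fitted difference was -0.53 ± 0.14 (limma adjusted p = 0.0279), and this call was lost in 9 of 12 alternative settings, with limma adjusted p-values up to 0.613. Over the 12 settings the fitted difference ran from -0.66 to -0.35. Among the 9 settings that lost the call were the fits without fnr1 Ws, without wild type Ws and without wild type Columbia. Those fits dropped genotype from the model as well, so the loss cannot be assigned to a single array. Its neighbour psbI, which also encodes a small photosystem II subunit and whose values were chosen after they had been seen, had 1411 in fnr1 Ws, 1538 in wild type Ws, 1908 in fnr1 Columbia and 2003 in wild type Columbia. The Ws arrays were again both lower, at -0.41 ± 0.14, which limma did not call (adjusted p = 0.0803).

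The psbA and petG calls held under more of the same 12 settings. The petG call held in all 12, with a highest limma adjusted p of 0.0185. The psbA call held in 11 and was lost without the filter on low signals (limma adjusted p = 0.0510). Relative to the median of all 69 plastid probe sets on each array, the log2 differences of Ws minus Columbia were 0.76 for psbA, 0.96 for petG and -0.61 for psbK.

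The complexes had medians on both sides of 0 in the ecotype comparison. The median fitted log2 difference of Ws minus Columbia was 0.26 for psa, 0.17 for psb, -0.02 for pet and -0.05 for atp, and rbcL stood at -0.20 ± 0.14 (limma adjusted p = 0.475). Over the 33 genes it was 0.10, with 21 genes above 0 and 12 below, and over all tested probe sets it was 0.04. Without the wild type Columbia array the median of the 33 genes was -0.02, and without the fnr1 Columbia array it was 0.18. Both of these fits also dropped genotype from the model. The SD of the 33 differences was 0.32, against 0.47 over all tested probe sets, again without matching for signal. Both Ws arrays lay on one side of both Columbia arrays for 17 of 33 genes (51.5%), 13 higher and 4 lower, beside 48.3% of all tested probe sets. Intervals were less tight around 0 here, and those of 14 genes reached beyond 1.5-fold.

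Among genes that were not called, psaA had a fitted ecotype difference of 0.34 ± 0.14 (limma adjusted p = 0.155), with both Ws arrays above both Columbia arrays. The psaB gene, which lies beside it, had -0.14 ± 0.13 with overlapping ecotypes. The fitted difference was 0.44 ± 0.14 for atpH (limma adjusted p = 0.0623) and 0.42 ± 0.15 for petL (limma adjusted p = 0.0924), each with both Ws arrays higher. The atpH gene was called under quantile normalization (limma adjusted p = 0.0453). It was also called without the wild type Columbia array, and petL without the fnr1 Columbia array, in fits that dropped genotype from the model as well.

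Neither atpB nor atpE was called between ecotypes. The atpB signal, for the catalytic beta subunit, was 7523 in fnr1 Ws, 7396 in wild type Ws, 7318 in fnr1 Columbia and 8321 in wild type Columbia, and that of atpE, for the epsilon subunit, was 6093 in fnr1 Ws, 6015 in wild type Ws, 6680 in fnr1 Columbia and 7023 in wild type Columbia. The ecotypes overlapped for atpB (-0.07 ± 0.13), and both Ws arrays were lower for atpE (-0.18 ± 0.13, limma adjusted p = 0.503).

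Within a single genotype, again with no test, petG and psbA were at least 1.5-fold higher in Ws among the fnr1 arrays, and 0 genes were as much lower (beside 6.66% and 8.18% of all tested probe sets). Among the wild type arrays, petG, petL, psbA, psbJ and psbT were at least 1.5-fold higher in Ws, and psbK was that much lower (beside 7.76% and 8.13%).

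The order of the genes on the plastid genome, taken from the RefSeq gene table of TAIR10.1, was not used to choose them. From textbook knowledge of plastid operons, 27 of the 33 genes fall into 9 groups transcribed together, and petN, psaC, psbA, psbM, psbN and rbcL lie outside these groups. Only genes among the 33 were grouped, so a gene left outside may still share a transcript with other plastid genes. In the ecotype comparison all fitted differences of a group had one sign in 6 of the 9 groups, and in the genotype comparison in 2 of 9. The genes of the petL, petG and psaJ group were all higher in both Ws arrays, with fitted log2 differences from 0.26 to 1.03, of which petG alone was called. Both genes of the psbK and psbI group were lower in both Ws arrays, at -0.53 and -0.41. The psbE, psbF, psbL and psbJ group had differences from 0.06 to 0.27 and the psbD, psbC and psbZ group from 0.10 to 0.31. The atpB and atpE group (-0.18 to -0.07) and the psaI and petA group (0.01 to 0.06) also had one sign. Mixed in sign were the group of psbB, psbT, psbH, petB and petD (-0.27 to 0.33), the group of atpI, atpH, atpF and atpA (-0.10 to 0.44) and the psaA and psaB group (-0.14 to 0.34). Genes of a group share transcripts, so they are not independent measurements, and no test of the groups was made. Several groups hold only 2 genes, and 21 of the 33 ecotype differences were above 0, so one sign within a group can easily arise. Over all tested probe sets, both Ws arrays lay on one side of both Columbia arrays for 48.3%.

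**Figure D4:**
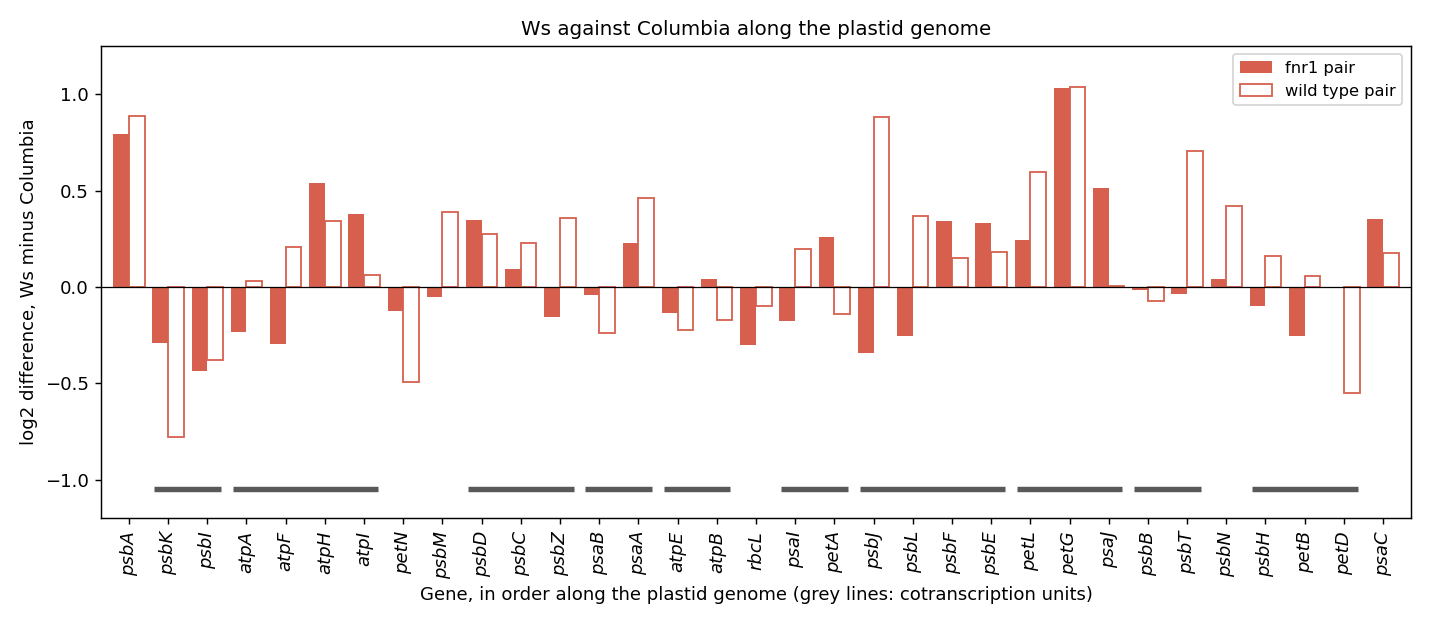
Log2 difference of Ws minus Columbia for the 33 genes in their order along the plastid genome, with filled bars for the fnr1 pair of arrays and open bars for the wild type pair, and grey lines under genes transcribed together (the psbB line is interrupted at psbN, which is not in that group). Both bars are tall at psbA and petG, and both are below 0 at psbK and psbI. At petL, psbJ and psbT only the open bar rises past 1.5-fold, and the filled bar at psbJ points down (-0.34).

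Relative to other plastid transcripts, the differences depended on how the plastid level was taken. The median signal of the 69 plastid probe sets was 1386 in fnr1 Ws, 1428 in wild type Ws, 1432 in fnr1 Columbia and 1243 in wild type Columbia. After this median was subtracted on the log2 scale from each array, the median difference of the 33 genes for fnr1 minus wild type was -0.11, with 7 genes above 0 and 26 below, and the same shift took the median of all tested probe sets to -0.11. By complex it was -0.10 for psa, -0.07 for psb, -0.11 for pet, -0.13 for atp and -0.13 for rbcL. The median signal differed by 0.20 (log2) between fnr1 and wild type in Columbia, whereas the median of the 69 probe sets' own differences there was 0.01. Relative to the median of those own differences, the 33 genes had a median of 0.02, a measure added after seeing the data. The 69 probe sets include the 33 genes themselves. Relative to the plastid probe sets outside the 33, the median of the 33 genes for fnr1 minus wild type was -0.04. Relative to the plastid NDH genes it was 0.17, on the other side of 0.

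For Ws minus Columbia, the median relative to the plastid median was 0.03, with 17 genes above 0 and 16 below. By complex it was 0.18 for psa, 0.09 for psb, -0.10 for pet, -0.13 for atp and -0.28 for rbcL. The order of the complexes was the same as with median scaling, since the subtraction moves all genes alike.

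**Figure D5:**
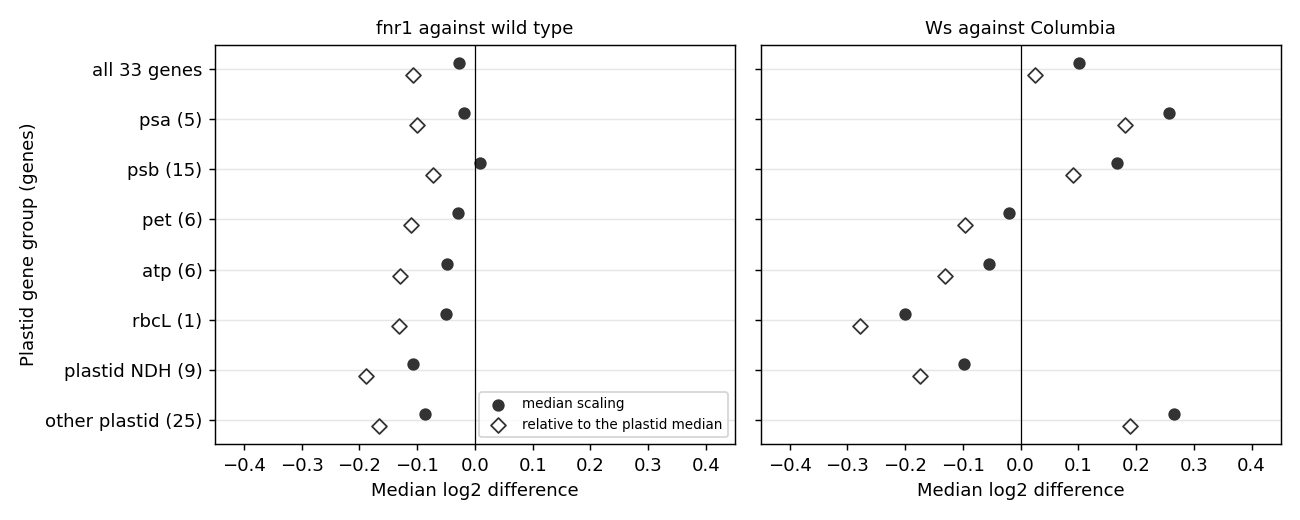
Median log2 difference by plastid gene group, fnr1 minus wild type on the left and Ws minus Columbia on the right, with median scaling (filled circles) and relative to the plastid median (open diamonds); numbers in parentheses are genes tested. On the left all circles lie between -0.11 and 0.01, and on the right they spread from -0.20 (rbcL) to 0.27 (other plastid genes).

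The other plastid genes, which the 33 were not tested against, are given by counts. Of the plastid NDH genes, for subunits of a chloroplast complex in cyclic electron flow, 9 of 10 passed the filter, limma called 0 between genotypes and 3 lower in Ws, and the medians were -0.11 for fnr1 minus wild type and -0.10 for Ws minus Columbia. Of the other 26 plastid genes, 25 passed, limma called 0 between genotypes and 3 higher and 1 lower in Ws, and the medians were -0.09 and 0.27. A list of 33 nuclear genes for subunits of the same complexes had 6 with a listed probe set, namely ATPC1, ATPC2, PSAE-1, PSAN, PSBW and PSBY. None of the 6 was called in either comparison, with medians of -0.14 for fnr1 minus wild type and 0.01 for Ws minus Columbia. Of 36 nuclear factors for plastid transcription and RNA, only ATAB2 had a listed probe set, and it was not called (-0.11 and 0.09). Of the green leaf markers, limma called 0 between genotypes and 2 between ecotypes: LHCB4.2 (-1.10) and LHCB4.3 (-1.04), which encode light-harvesting proteins of photosystem II, both lower in Ws. The part of these markers in the ecotype differences of the plastid genes was not tested.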

How the data were processed

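Affymetrix arrays of 4 RNA samples gave 1 linear intensity signal per probe set and array; the authors made these deposited intensity values with MAS5, per the submitters' processing notes. Its version, scaling target and detection calls are not given in the sources used here. Of 22810 probe sets, 64 controls were left out. Each array was scaled to a common median, because earlier results of these data had shown unequal levels, and log2(signal + 5.75) was taken, the pseudocount being the 25th percentile of scaled signals, which understates changes of dim probe sets. The 13648 probe sets at or above the 40th percentile of mean log2 signal entered an additive model of genotype and ecotype in limma 3.58.1 (R 4.3.3), with a variance trend, 2-sided p-values and Benjamini-Hochberg adjustment (threshold 0.05). The model has 1 residual degree of freedom, the mismatch between the pairs, beside 15.7 prior ones that limma takes from the spread of all tested probe sets. Its p-values and intervals therefore rest mostly on that borrowed spread. No combination had a replicate, so neither the p-values nor the intervals measure variation within a combination. The spread among the 4 arrays may be technical, and their small number limits precision. No test was made inside a single ecotype or genotype.

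Genes were named from the platform annotation (13513 probe sets with 1 gene, 503 with several, 8730 not listed) and, by gene ID, the RefSeq TAIR10.1 table. Values on all arrays are given for called genes, the highest and lowest fitted difference and the highest mean signal in each complex, and rbcL; exceptions are stated. The 33 genes, the operon groups and the other lists were chosen with earlier results of these data known. The model was also run on simulated data with independent noise and no effects that differ between backgrounds. That run does not measure the error rate in the real arrays. Figures were drawn with matplotlib 3.10.9.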

Additional observations from a re-analysis of the deposited data

Results flagged for a closer look

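Several genotype differences had opposite signs in Ws and Columbia, and several ecotype differences had opposite signs in fnr1 and wild type. With 1 array per combination, these differences between backgrounds were not tested. The log2 difference of psbJ for fnr1 minus wild type was -0.58 in Ws and 0.65 in Columbia, and for Ws minus Columbia it was -0.34 in the fnr1 arrays and 0.88 in the wild type arrays. The median over the 33 genes for Ws minus Columbia was -0.016 in the fnr1 arrays and 0.18 in the wild type arrays. The psb genes had a median of -0.11 in Ws and 0.049 in Columbia for fnr1 minus wild type, and of -0.038 in the fnr1 arrays and 0.27 in the wild type arrays for Ws minus Columbia. The pet genes had 0.025 in Ws and -0.13 in Columbia for fnr1 minus wild type, and 0.12 in the fnr1 arrays and -0.043 in the wild type arrays for Ws minus Columbia. The atp genes had -0.046 in the fnr1 arrays and 0.046 in the wild type arrays for Ws minus Columbia. The SD over genes of the difference between backgrounds, divided by 2, was 0.20 for the 33 genes and 0.22 for all tested probe sets.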

How the results depend on the processing

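Between fnr1 and wild type, 0 of the 33 genes were called by limma under all 12 alternatives, with 0 to 5 at an unadjusted p under 0.05. Over all tested probe sets, the 25 calls became 46 with plastid median scaling (35 higher and 11 lower, against 22 and 3), 11 with a pseudocount of 32, 6 without the variance trend, 0 without the filter (1182 at an unadjusted p under 0.05), 0 with genotype alone in the model (210) and 0 to 1 when each array was left out (168 to 267). The 1136 ecotype calls became 477 on the deposited scale, 368 without the filter, 752 without the trend and 525 to 1008 when each array was left out; with plastid median scaling the split was 265 higher and 818 lower, against 419 and 717. Of the 33 genes, 2 to 4 were called between ecotypes under the alternatives other than no filter, where 1 (petG) was; petG and psbA were among them each time, while psbK dropped out under 9 of 12, atpH came in under quantile normalization and without wild type Columbia, and petL without fnr1 Columbia. Their median for fnr1 minus wild type was 0.10 on the deposited scale, 0.031 with quantile normalization, -0.11 with plastid median scaling, -0.078 to 0.040 when each array was left out and 0.17 relative to the NDH genes. Their median for Ws minus Columbia was 0.29 on the deposited scale, 0.14 with quantile normalization, 0.025 with plastid median scaling and -0.019 (without wild type Columbia) to 0.18 (without fnr1 Columbia) when each array was left out, against 0.10; it was -0.045 relative to the median of the plastid probe sets' own differences, an alternative added after seeing the data. The deposited scale moved the median of all tested probe sets by 0.11 and 0.17; relative to it the 33 genes stood at 0.01 and 0.08. On that scale psaB (0.047), petB (0.091), atpE (0.011) and atpB (0.12) turned positive for Ws minus Columbia, as did psbA (0.060), atpE (0.097), atpB (0.044) and rbcL (0.073) for fnr1 minus wild type. Quantile normalization turned psbA (0.031), atpE (0.027), atpB (0.027) and rbcL (0.051) positive for fnr1 minus wild type and petB (0.0075) and atpB (0.027) for Ws minus Columbia. Plastid median scaling turned psaA (-0.039), psbK (-0.070), petG (-0.055) and petB (-0.068) negative for fnr1 minus wild type. Leaving out each array dropped the other factor from the model, so that genotype and ecotype mix; fnr1 minus wild type then ran from -0.51 to 0.38 for psbA, -0.53 to 0.0082 for atpH, -0.19 to 0.27 for psaA, -0.091 to 0.51 for petL, -0.50 to 0.54 for petG, -0.078 to 0.30 for atpI, -0.20 to 0.10 for rbcL, -0.65 to 0.060 for psbT, -0.38 to 0.40 for psbK, -0.11 to 0.14 for petB, -0.14 to 0.085 for atpE and -0.17 to 0.0046 for atpB, and Ws minus Columbia from -0.16 to 0.49 for psbM and -0.16 to 0.028 for atpB. The alternatives were followed for the 15 genes that the naming rule gave; sign and call were unchanged in 150 of 180 genotype values (30 changed sign) and 159 of 180 ecotype values (8 changed sign, 10 lost and 3 gained a call). The cause of these changes was not otherwise tested. Averaging a gene's probe sets was not run, as each gene had 1. Genotype and ecotype are both in the model, which pairs the arrays by ecotype for the genotype comparison and by genotype for the ecotype comparison. No further pairing was possible with 1 array per combination, and the labels give no replicate numbers. Signal over background could not be judged without detection calls.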
